A study of Mus musculus with 6 samples.

Results

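The genes described here are 47 genes of DNA replication and S phase, out of 20756 genes listed in a table of 6 libraries from mouse tumor organoids (MTOs). They were listed by their known role, but the list was chosen with earlier results of these data known. The 47 comprise 5 genes of origin licensing, 7 of the MCM helicase (with Mcm10), 5 of CDC45 and the GINS complex, 9 of primase and the replicative polymerases, 6 of the sliding clamp and its loader, 6 of the RPA complex and the lagging strand, 4 of nucleotide supply, 4 of chromatin assembly and DNA methylation on new DNA, and the transcription factor gene E2f1. All 47 were listed, and all 47 passed the filter on low values. In 46 of them every sgPrkci library reached 5 CPM, so that these did not depend on the sgPrkcz libraries to pass. Orc1 was the exception.

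MTOs are epithelial cultures grown in a gel from intestinal tumors, here of C57BL/6 background and obtained as an existing male line. By CRISPR/Cas9, 3 libraries were made from MTOs targeted at Prkci (sgPrkci, replicates 10 to 12) and 3 from MTOs targeted at Prkcz (sgPrkcz, replicates 13 to 15), which encode PKCλ/ι and PKCζ, the atypical members of the protein kinase C family. All were untreated and were grown in medium with 50 ng/ml EGF and 10 mM HEPES. The comparison asks how tumor cells differ in which either kinase gene was targeted, and no library with a control guide was analysed here. A fall below thus means only a lower level in sgPrkci than in sgPrkcz, and a rise in sgPrkcz cannot be told apart from it. What separated the replicates of a group (passage, infection or clone) is not stated in the sources used here, so p-values measure the spread between these libraries. A data sheet of the study heads these libraries with the guide names exchanged. The groups below follow the labels, and with the other naming every direction would turn round.

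Cells copy their genome in S phase. In G1 the origin recognition complex, CDC6 and CDT1 load the ring-shaped MCM helicase onto DNA, and at the start of S phase CDC45 and GINS join it to form the active helicase. Primase and the polymerases alpha, delta and epsilon then synthesize DNA at the fork, with PCNA as the sliding clamp, RFC as the loader of the clamp, and RPA as the cover of single-stranded DNA. Many of these genes are transcribed under E2F factors and are abundant in cycling cells, which in the intestine are the stem and transit-amplifying cells, and fall as cells differentiate.

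The libraries held 2141125 to 2815760 reads in sgPrkci and 1593480 to 2696430 reads in sgPrkcz, and a single read was worth 0.355 to 0.628 CPM. CPM are reads scaled to a total of 1000000 over the listed genes. The replication genes rested on 8 to 616 reads per library. Pearson's r across genes was 0.976 to 0.985 between libraries of a group and 0.920 to 0.934 between libraries of the 2 groups. Prkci, the target itself, had 53.9, 56.5 and 46.9 CPM in sgPrkci, against 72.3, 34.5 and 59.7 CPM in sgPrkcz (log2 fold change of -0.02, adjusted p = 0.939). Prkcz was below the filter in both groups, with at most 5.02 CPM. The mRNA of the targets thus does not check the labels. The epithelial genes Epcam (700.0 to 823 CPM in sgPrkci, against 520 to 586 CPM in sgPrkcz) and Krt8 (301 to 323 CPM in sgPrkci, against 307 to 340 CPM in sgPrkcz) were high in all 6 libraries.

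As a set, the replication genes were lower in sgPrkci than in sgPrkcz MTOs. Of the 47 genes, 41 passed the test as lower and 0 as higher, where 26.5% of all 9558 tested genes passed as lower and 14.4% as higher. The test was limma on log2(CPM + 1) with p adjusted by Benjamini-Hochberg over all tested genes, and its threshold was 0.05. No gene of the 47 was higher at an unadjusted p under 0.05 in limma, nor at an adjusted p under 0.05 in edgeR or DESeq2, where 21% and 15.2% of tested genes were. In 42 of the 47 genes every sgPrkci library was below every sgPrkcz library, as it was in 31.8% of tested genes. The median log2 fold change was -0.70 over the 47 genes and -0.11 over all tested genes, and 11.5% of tested genes lay at or under the median of the 47. The fitted fold change was below 0 in 45 of the 47 genes and in 59.5% of tested genes. Since RNA was measured in bulk, a different share of cells in S phase and a different amount of RNA of these genes per cell cannot be told apart.

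**Figure D1:**
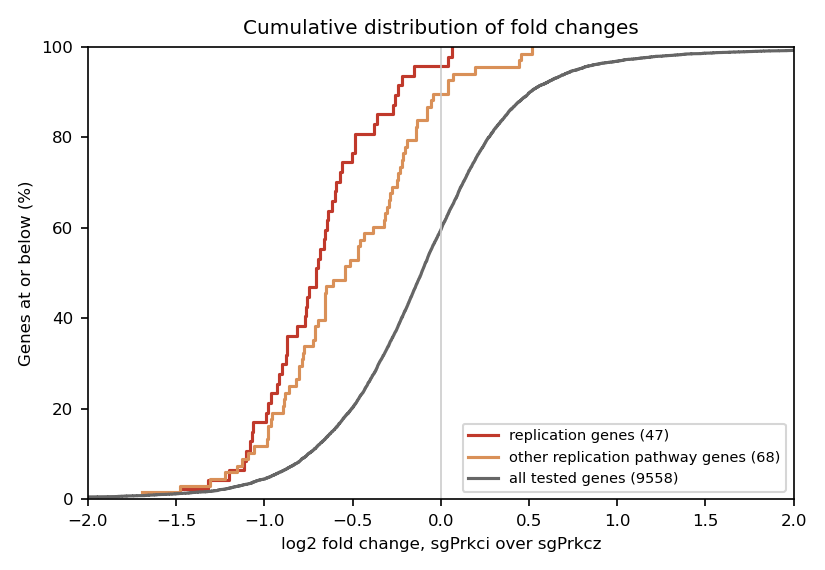
Cumulative percentage of genes (vertical axis) at or below each log2 fold change, sgPrkci over sgPrkcz (horizontal axis), for the 47 replication genes, 68 other genes of the replication pathway and all 9558 tested genes. The curve of the replication genes lies left of that of all tested genes, with medians of -0.70 and -0.11, and reaches 100% just above 0.

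The difference between the groups was of like size in each library. The summed level of the 47 genes was 1801, 1798 and 1788 CPM in the sgPrkci libraries (1796 ± 6.53, SD, n = 3), against 2855, 2878 and 2806 CPM in the sgPrkcz libraries (2846 ± 36.9, SD, n = 3). The sgPrkci sum was thus 0.631 times the sgPrkcz sum, and the groups did not overlap. Relative to the sgPrkcz mean of each gene, the median gene of the 47 stood at -0.72, -0.67 and -0.74 on the log2 scale in the sgPrkci libraries and at 0.022, 0.0077 and -0.024 in the sgPrkcz libraries. No library of either group stood apart. The median of all tested genes stood at -0.090, -0.096 and -0.12 in the sgPrkci libraries. In replicate 10 of sgPrkci 47 of the 47 genes were below the sgPrkcz mean, and 45 were in each of replicates 11 and 12. The share of all tested genes below that mean in each library was not analysed here.

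How the libraries are scaled moved the number of calls more than the set's place among genes. With CPM rescaled by TMM factors, which moved the median of all tested genes to 0.0016, 34 of the 47 genes passed as lower and 0 as higher, beside 19.8% and 20.7% of all tested genes. Over all genes that is 1889 lower and 1982 higher, in place of 2534 lower and 1377 higher. The median of the 47 relative to that of all tested genes was -0.60 on this scale and -0.59 on the CPM scale. The 7 calls that ended were those of Orc6, Gins3, Pold1, Pole2, Pcna, Rfc1 and Fen1 (adjusted p = 0.151, 0.0769, 0.0540, 0.0826, 0.0661, 0.194 and 0.0994). DESeq2 on the recovered reads passed 26 of the 47 as lower, beside 14.1% of all tested genes, and edgeR passed 37, beside 20.2%. Without any 1 library, limma passed 34 to 39 of the 47 as lower and 0 as higher.

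**Figure D2:**
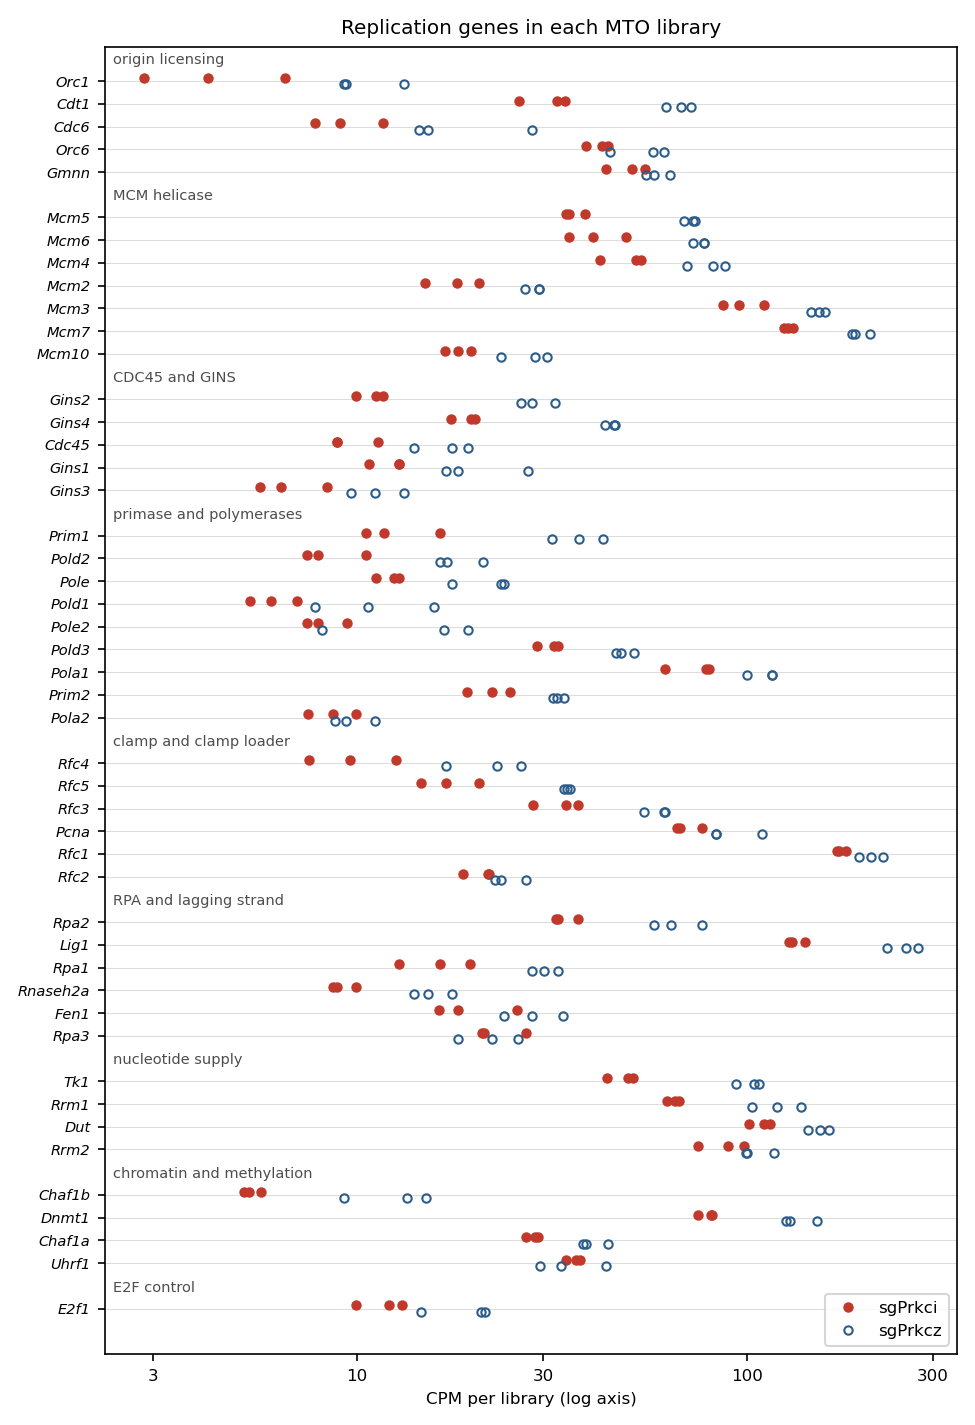
Level of each of the 47 replication genes in CPM (horizontal log axis) in each of the 3 sgPrkci libraries (filled points, above) and 3 sgPrkcz libraries (open points, below), with genes grouped by role. In 42 genes all filled points lie left of all open points, and those of Rpa3 and Uhrf1 overlap the open points.

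The promoters of the set were searched for E2F-type words, as E2F factors are the best known regulators in common of these genes. The search covered RefSeq windows (GRCm38.p6) of 250 bases before to 50 bases after each annotated start, which 39 of the 47 genes had, for the words TTTGGCGC, TTTCCCGC, TTTGCCGC and TTTCGCGC on both strands. A window of Gmnn, Mcm4, Gins1, Gins2, Gins4, Prim2, Pole and Rfc2 was not analysed here. At least 1 word was found in 16 of the 39 genes (41.0%), and in 5.11% of the 7481 tested genes with a window and 2.61% of all 27025 genes with a window. Of the 63 other pathway genes with a window, 23.8% held a word. Per window the shares were 34.0% for the 47 windows of the set, 21.5% for the other pathway genes, 4.15% for tested genes and 2.26% for all windows. The CCAAT word, which many promoters hold, was in 64.1% of the 39 genes and in 43.0% of tested genes. A match is a string of letters and not a shown binding site, and neither factor binding nor its part in the fold changes was tested.

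Printed here are the 200 bases before the start for Orc1, Mcm5, Prim1 and Tk1, each with the largest fall in its role group. Mcm6 and Uhrf1 are also printed, and were chosen after their values and matches were seen. Rfc4, Rpa2, Chaf1b and E2f1, with the largest fall in other role groups, hold no word in their windows and are not printed. Capitals mark the E2F-type words on either strand, and each sequence runs 5′ to 3′ on the strand of the gene. Orc1 lies at chr4:108579254-108579453 (plus strand), Mcm5 at chr8:75109309-75109508 (plus), Mcm6 at chr1:128359706-128359905 (minus), Prim1 at chr10:128015015-128015214 (plus), Tk1 at chr11:117826015-117826214 (minus) and Uhrf1 at chr17:56304113-56304312 (plus, one of 2 windows of this gene).
Orc1: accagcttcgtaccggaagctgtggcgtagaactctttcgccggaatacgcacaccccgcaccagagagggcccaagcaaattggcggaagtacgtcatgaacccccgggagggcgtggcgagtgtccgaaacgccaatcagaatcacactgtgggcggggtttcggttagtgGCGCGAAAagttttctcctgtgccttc
Mcm5: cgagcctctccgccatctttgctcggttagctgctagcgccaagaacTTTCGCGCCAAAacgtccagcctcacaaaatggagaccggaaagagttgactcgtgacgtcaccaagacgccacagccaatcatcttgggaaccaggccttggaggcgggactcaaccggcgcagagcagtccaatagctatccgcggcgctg
Mcm6: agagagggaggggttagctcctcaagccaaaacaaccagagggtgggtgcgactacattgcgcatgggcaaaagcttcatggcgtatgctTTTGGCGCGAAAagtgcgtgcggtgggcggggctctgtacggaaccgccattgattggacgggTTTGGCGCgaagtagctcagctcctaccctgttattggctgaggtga
Prim1: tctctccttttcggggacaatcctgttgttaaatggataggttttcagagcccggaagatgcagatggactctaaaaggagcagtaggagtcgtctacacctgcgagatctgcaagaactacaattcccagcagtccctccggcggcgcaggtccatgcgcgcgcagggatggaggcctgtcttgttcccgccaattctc
Tk1: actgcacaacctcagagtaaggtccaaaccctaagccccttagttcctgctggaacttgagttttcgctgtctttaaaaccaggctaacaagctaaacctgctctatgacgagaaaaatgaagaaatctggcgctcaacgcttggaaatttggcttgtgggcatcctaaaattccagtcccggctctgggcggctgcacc
Uhrf1: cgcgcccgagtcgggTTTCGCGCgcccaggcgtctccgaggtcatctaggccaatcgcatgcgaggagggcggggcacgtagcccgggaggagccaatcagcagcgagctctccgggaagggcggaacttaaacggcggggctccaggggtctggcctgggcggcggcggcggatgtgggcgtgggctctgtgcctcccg
In Mcm5 and Mcm6 a word on the gene's strand overlaps a word on the other strand, so that each run of capitals reads as an E2F-type word from both sides, and Mcm6 holds a further word nearer to the start. Prim1 and Tk1, with log2 fold changes of -1.47 and -1.07, hold none of these words in the window, whereas Uhrf1 holds one and did not pass the test (log2 fold change of 0.04). Of the 16 genes with a word 15 passed as lower, and of the 23 genes with a window but no word 20 did, so that the calls do not set the genes with a word apart.

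**Figure D3:**
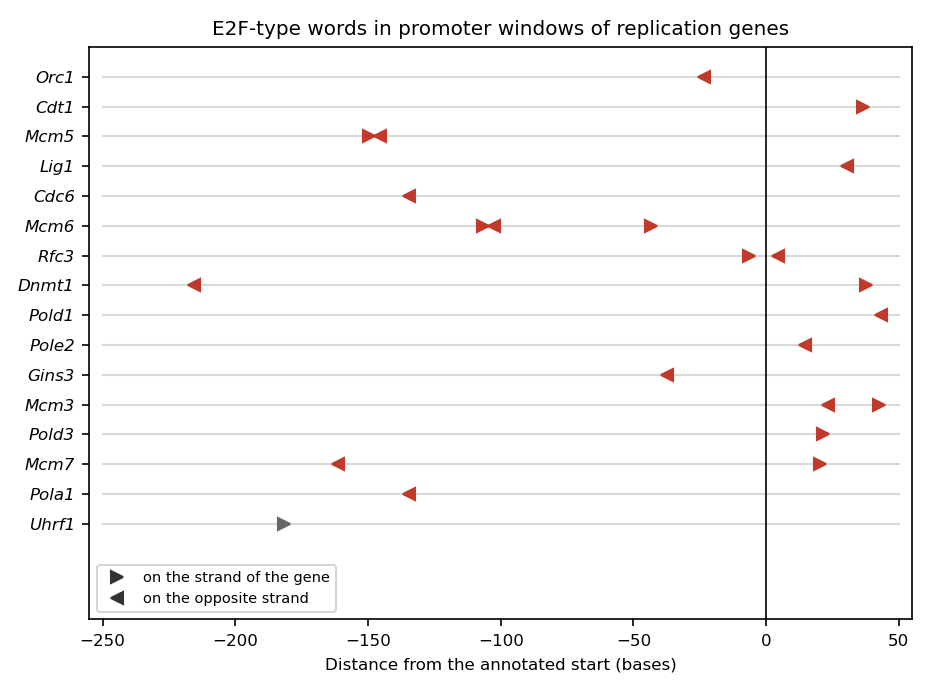
Position of each E2F-type word (arrowheads, pointing right on the strand of the gene and left on the opposite strand) relative to the annotated start in bases, for the 16 replication genes with a match, ordered by fold change from Orc1 down to Uhrf1. Red marks the 15 genes that passed as lower and grey Uhrf1, and the lines span the window of 250 bases before to 50 after the start.

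In origin licensing 4 of the 5 genes passed as lower and 1 did not pass, with a median log2 fold change of -0.90. Cdt1, which brings the MCM ring to origins, had 26.0, 34.1 and 32.7 CPM in sgPrkci, against 61.9, 67.8 and 72.0 CPM in sgPrkcz. All 3 sgPrkci libraries were well below the sgPrkcz libraries (log2 fold change of -1.10 ± 0.14 SE, adjusted p = 1.13e-06). The end of Cdt1 overlaps the annotated gene Gm20388 on the same strand, which is not among the listed genes. Orc1, the subunit of the origin recognition complex that comes and goes with the cell cycle, had 4.15, 6.54 and 2.84 CPM in sgPrkci, against 9.27, 13.2 and 9.36 CPM in sgPrkcz. It was lower, on as few as 8 reads in a library (log2 fold change of -1.11 ± 0.29 SE, adjusted p = 0.00341). Cdc6, the loading ATPase, had 9.05, 11.7 and 7.81 CPM in sgPrkci, against 15.2, 14.4 and 28.1 CPM in sgPrkcz (log2 fold change of -0.90, adjusted p = 0.00553). The groups did not overlap, but replicate 15 of sgPrkcz stood above the other two, and without it the fold change was -0.61 and did not pass (adjusted p = 0.0601). Orc6, a further subunit, was lower by a small margin (log2 fold change of -0.36, adjusted p = 0.0393), and its call ended in 12 of 17 alternatives, among them leaving out any library but replicate 14 of sgPrkcz (adjusted p between 0.0616 and 0.172).

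Gmnn encodes geminin, the protein that binds CDT1 and holds off a second round of licensing. It had 54.7, 43.4 and 50.8 CPM in sgPrkci, against 63.4, 55.2 and 57.9 CPM in sgPrkcz. Every sgPrkci library was below every sgPrkcz library, yet the difference did not pass (log2 fold change of -0.25, 95% interval -0.51 to 0.016, adjusted p = 0.125).

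For the MCM helicase all 7 genes passed as lower, with log2 fold changes of -0.98 to -0.57 and no overlap of the groups in any of them. The summed level of the 6 ring subunits Mcm2 to Mcm7 was 364, 359 and 385 CPM in sgPrkci, against 615, 604 and 588 CPM in sgPrkcz. The summed RNA of the 6 subunits was thus 0.613 times its sgPrkcz level, and the protein ring was not measured. Mcm5 had 34.3, 35.0 and 38.4 CPM in sgPrkci, against 73.4, 69.0 and 72.6 CPM in sgPrkcz (log2 fold change of -0.98 ± 0.12 SE, adjusted p = 1.16e-06). Mcm7 had 131, 127 and 124 CPM in sgPrkci, against 189, 206 and 186 CPM in sgPrkcz (log2 fold change of -0.60 ± 0.087 SE, adjusted p = 8.88e-06). Mcm6 had 40.4, 35.0 and 49.0 CPM in sgPrkci, against 77.5, 77.8 and 72.6 CPM in sgPrkcz (log2 fold change of -0.87 ± 0.13 SE, adjusted p = 1.24e-05). The ring holds a single copy of each subunit. The fitted log2 fold changes of the 6 subunits ran from -0.98 for Mcm5 to -0.60 for Mcm7, with Mcm2, Mcm3 and Mcm4 at -0.65, -0.65 and -0.70. Mcm5 lies on chromosome 8, where the median of all tested genes was -0.27. Relative to the median of its own chromosome, Mcm5 was at -0.71 and Mcm6 at -1.01. Mcm2, Mcm3, Mcm4 and Mcm7 were at -0.67, -0.79, -0.64 and -0.67 on this scale, so the order changed. The differences between subunits were not tested. Mcm10, which helps to activate the helicase, was lower (log2 fold change of -0.57, adjusted p = 0.0120). Without replicate 14 of sgPrkcz the adjusted p of Mcm10 was 0.0514. Mcm7 overlaps Cops6 on the opposite strand and has a processed pseudogene that is 98.7% identical over 300 bases, so that its reads are less certain than those of the other subunits.

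The 5 genes of CDC45 and GINS had the lowest ratio of summed levels of the role groups. Their sum was 61.1, 59.3 and 55.4 CPM in sgPrkci, against 130, 120 and 119 CPM in sgPrkcz, a ratio of 0.477 in place of 0.631 over the 47 genes. Gins2, Gins3 and Gins4 lie on chromosome 8, where the median of all tested genes was -0.27. Relative to the median of each gene's own chromosome, the median log2 fold change of this group was -0.69. It was -0.67 for the MCM helicase and -0.61 over the 47 genes. All 5 genes of CDC45 and GINS passed as lower without overlap. Gins4 (SLD5) had 19.6, 20.1 and 17.4 CPM in sgPrkci, against 45.6, 45.8 and 43.3 CPM in sgPrkcz (log2 fold change of -1.20 ± 0.15 SE, adjusted p = 1.46e-06). Gins2 (PSF2) had 11.7, 11.2 and 9.94 CPM in sgPrkci, against 28.2, 26.4 and 32.2 CPM in sgPrkcz (log2 fold change of -1.32 ± 0.19 SE, adjusted p = 6.38e-06). Both were tight within each group. Cdc45, the helicase cofactor, had 11.3, 8.87 and 8.88 CPM in sgPrkci, against 19.3, 17.6 and 14.04 CPM in sgPrkcz (log2 fold change of -0.75, adjusted p = 0.00830). Gins1 and Gins3, the remaining GINS subunits, were lower (log2 fold changes of -0.71 and -0.66, adjusted p = 0.0101 and 0.0359). Gins1 lost its call without replicate 13 of sgPrkcz (adjusted p = 0.0922). Gins3 lost it without replicate 10 or 12 of sgPrkci or 14 or 15 of sgPrkcz (adjusted p between 0.0638 and 0.132). Gins2 meets Gse1 on the opposite strand at its end, and the use of strand in counting is not stated in the sources used here.

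Among primase and the polymerases 8 of 9 genes passed as lower, with a median log2 fold change of -0.69. Prim1, the catalytic primase subunit, showed the largest fall of the 47 genes on the log2 scale. It had 10.6, 16.3 and 11.7 CPM in sgPrkci, against 37.1, 42.7 and 31.6 CPM in sgPrkcz (log2 fold change of -1.47 ± 0.19 SE, adjusted p = 2.11e-06). Its partner Prim2, the large primase subunit, was lower (log2 fold change of -0.56, adjusted p = 0.00761). Pola1, the catalytic subunit of polymerase alpha, had 79.96, 61.6 and 78.5 CPM in sgPrkci, against 100.1, 116 and 116 CPM in sgPrkcz (log2 fold change of -0.59 ± 0.11 SE, adjusted p = 0.000236). Pold3, an accessory subunit of polymerase delta, had 29.0, 32.7 and 32.0 CPM in sgPrkci, against 47.5, 51.5 and 46.2 CPM in sgPrkcz (log2 fold change of -0.62 ± 0.14 SE, adjusted p = 0.000894). None of these 3 overlapped between groups.

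The other subunits of the delta and epsilon polymerases among the 47 genes ranged from -0.99 for Pold2 to -0.69 for Pole2, with Pole at -0.77 and Pold1 at -0.76. Pold1, the catalytic subunit of polymerase delta, was low (5.33 to 7.01 CPM in sgPrkci, against 7.79 to 15.8 CPM in sgPrkcz), and its adjusted p of 0.0268 became 0.0677, 0.0892 and 0.166 without replicate 10 or 12 of sgPrkci or 15 of sgPrkcz. Pole2 had 9.43, 7.94 and 7.46 CPM in sgPrkci, against 16.7, 8.16 and 19.3 CPM in sgPrkcz. Its groups overlapped in replicate 14 of sgPrkcz, and its adjusted p of 0.0438 was between 0.0635 and 0.217 without any other single library. The readthrough transcript Gm49384 shares its end with Pole2. Pola2, the regulatory subunit of polymerase alpha, had 8.67, 7.47 and 9.94 CPM in sgPrkci, against 11.1, 8.79 and 9.36 CPM in sgPrkcz. It overlapped between groups and did not pass (log2 fold change of -0.15, 95% interval -0.64 to 0.34, adjusted p = 0.638). At this depth a fall of the size of the set's median lies just outside that interval.

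**Figure D4:**
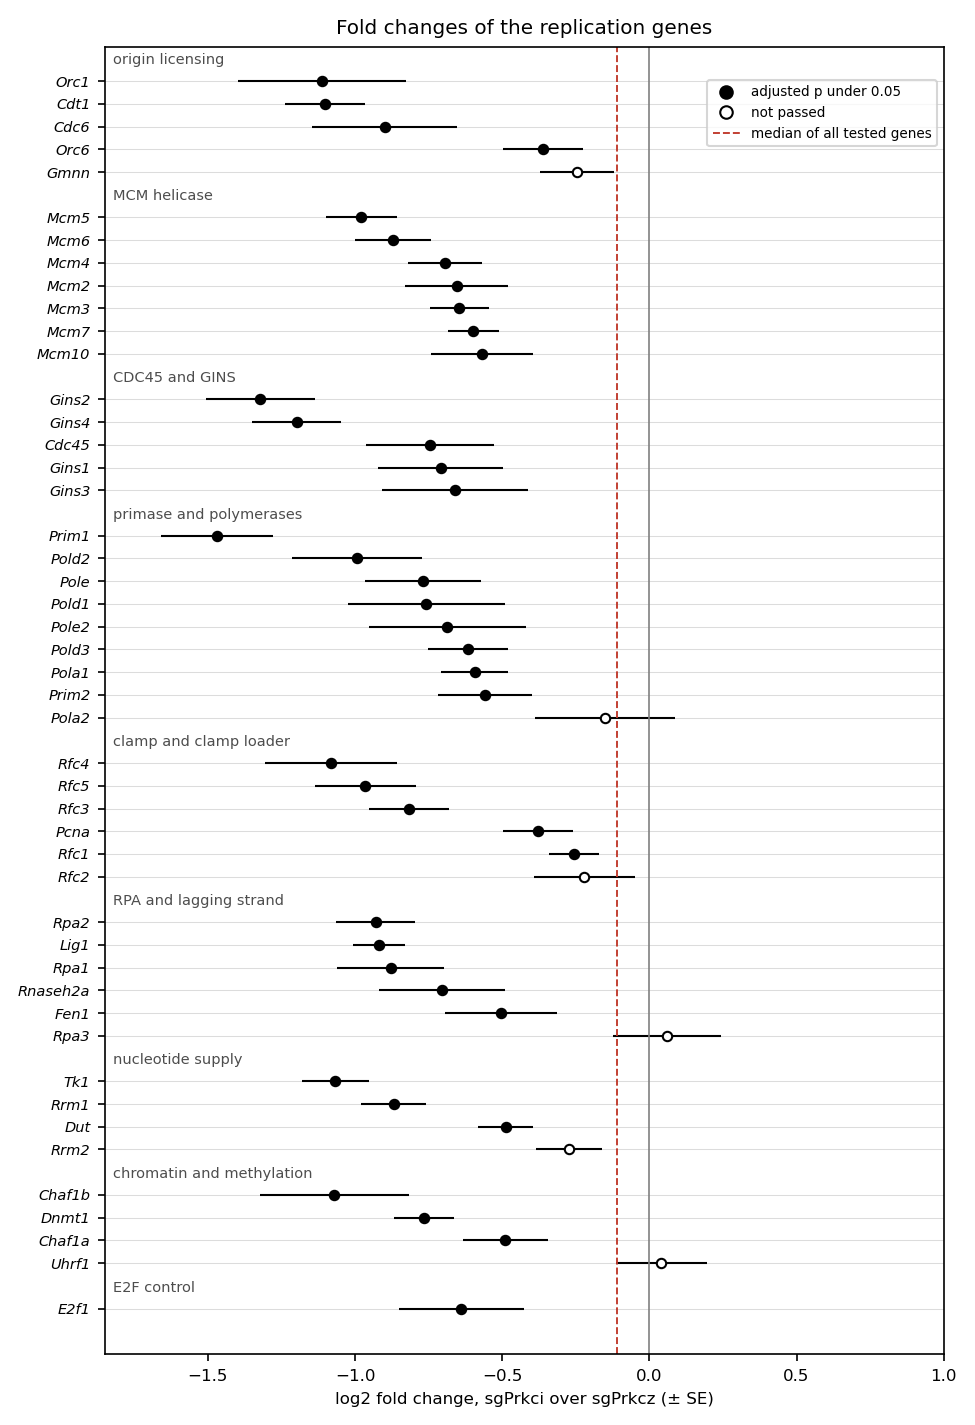
Log2 fold change, sgPrkci over sgPrkcz, of each replication gene (points, with SE bars), grouped by role and ordered within each role. Filled points passed the test (41 genes) and open points did not (6 genes), the dashed line is the median of all tested genes at -0.11, and the lowest gene is Prim1 at -1.47.

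In the clamp and its loader 5 of 6 genes passed as lower, with a median of -0.60. Among the small loader subunits Rfc3, Rfc4 and Rfc5 fell, and Rfc2 did not pass. Rfc3 had 28.3, 36.9 and 34.4 CPM in sgPrkci, against 61.2, 61.5 and 54.4 CPM in sgPrkcz (log2 fold change of -0.82 ± 0.14 SE, adjusted p = 4.9e-05). Rfc5 had 17.0, 20.5 and 14.6 CPM in sgPrkci, against 34.5, 35.1 and 33.9 CPM in sgPrkcz (log2 fold change of -0.96 ± 0.17 SE, adjusted p = 9.18e-05). Rfc4 had 7.54, 12.6 and 9.59 CPM in sgPrkci, against 26.3, 16.9 and 22.8 CPM in sgPrkcz (log2 fold change of -1.08 ± 0.23 SE, adjusted p = 0.000523). All 3 were separate between groups, and Rfc4 and Rfc5 end beside Eif4a2 and Wsb2 on the opposite strand. Rfc2, the remaining small subunit, had 21.9, 18.7 and 21.7 CPM in sgPrkci, against 27.1, 22.6 and 23.4 CPM in sgPrkcz. It did not pass (log2 fold change of -0.22, 95% interval -0.58 to 0.13, adjusted p = 0.321), although its groups did not overlap. Rfc2 meets Lat2 on the opposite strand at its end. Rfc1, the large subunit, was lower (log2 fold change of -0.26, adjusted p = 0.0180), as was Pcna, the clamp itself (-0.38, adjusted p = 0.0134). Both falls were small. The call of Rfc1 ended without replicate 10 of sgPrkci or 14 of sgPrkcz (adjusted p = 0.0657 and 0.0806), and that of Pcna without replicate 12 of sgPrkci or 13 of sgPrkcz (adjusted p = 0.0541 and 0.114).

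For RPA and the lagging strand 5 of 6 genes passed as lower, with a median of -0.79. Lig1, the ligase that joins Okazaki fragments, had the smallest adjusted p of all 47 genes. It had 130, 141 and 128 CPM in sgPrkci, against 228, 275 and 256 CPM in sgPrkcz (log2 fold change of -0.92 ± 0.089 SE, adjusted p = 3.1e-08). Rpa2, the middle subunit of the single-strand binding complex, had 32.8, 36.9 and 32.3 CPM in sgPrkci, against 57.9, 76.6 and 63.8 CPM in sgPrkcz (log2 fold change of -0.93 ± 0.13 SE, adjusted p = 8.69e-06). Rpa1, the large subunit, had 12.8, 16.3 and 19.5 CPM in sgPrkci, against 28.2, 30.1 and 32.8 CPM in sgPrkcz (log2 fold change of -0.88 ± 0.18 SE, adjusted p = 0.000515). Both subunits were lower in every sgPrkci library. Rpa3, the small subunit of the same complex, had 21.1, 27.1 and 21.0 CPM in sgPrkci, against 26.0, 18.2 and 22.2 CPM in sgPrkcz. The groups were intermixed (log2 fold change of 0.06, 95% interval -0.32 to 0.44, adjusted p = 0.815), and a fall as large as that of Rpa1 or Rpa2 is outside the interval. Its sign turned on leaving out replicate 11 of sgPrkci or 14 of sgPrkcz (-0.056 and -0.067). Rnaseh2a, a subunit of the enzyme that removes RNA from DNA, was lower (log2 fold change of -0.70, adjusted p = 0.0113) and shares sequence with a processed pseudogene. Fen1, the flap nuclease, was lower with overlapping groups (log2 fold change of -0.51, adjusted p = 0.0380), and its adjusted p was between 0.0653 and 0.185 without replicate 10 or 12 of sgPrkci or 13 or 15 of sgPrkcz.

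In nucleotide supply 3 of 4 genes passed as lower. Tk1, thymidine kinase of the salvage route and a classical S phase enzyme, had 49.4, 50.9 and 43.7 CPM in sgPrkci, against 104, 93.5 and 107 CPM in sgPrkcz (log2 fold change of -1.07 ± 0.11 SE, adjusted p = 1.14e-07). Rrm1, the large subunit of ribonucleotide reductase, had 62.2, 66.8 and 65.3 CPM in sgPrkci, against 119, 137 and 103 CPM in sgPrkcz (log2 fold change of -0.87 ± 0.11 SE, adjusted p = 1.8e-06). Dut, which keeps uracil out of DNA, had 114, 101 and 110 CPM in sgPrkci, against 154, 143 and 162 CPM in sgPrkcz (log2 fold change of -0.49 ± 0.093 SE, adjusted p = 0.000224). The groups were apart in all 3. Rrm2, the small reductase subunit whose level is known to follow S phase, had 98.4, 74.7 and 89.5 CPM in sgPrkci, against 118, 99.2 and 100.1 CPM in sgPrkcz. It was below in every sgPrkci library by a narrow gap and did not pass (log2 fold change of -0.27, 95% interval -0.51 to -0.038, adjusted p = 0.0578). Without replicate 10 of sgPrkci it passed (adjusted p = 0.0333). Reads of Rrm2 could be shared with a pair of processed pseudogenes, 98.4% and 96.7% identical over parts of their length. Neither pseudogene is among the listed genes.

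Among the genes of chromatin assembly and DNA methylation 3 of 4 passed as lower. Dnmt1, which copies CpG methylation onto the new strand, had 80.7, 81.3 and 74.9 CPM in sgPrkci, against 129, 151 and 126 CPM in sgPrkcz (log2 fold change of -0.77 ± 0.10 SE, adjusted p = 2.75e-06). Chaf1b, the middle subunit of the CAF-1 histone chaperone, had 5.28, 5.14 and 5.68 CPM in sgPrkci, against 9.27, 15.1 and 13.5 CPM in sgPrkcz (log2 fold change of -1.07 ± 0.25 SE, adjusted p = 0.00161). Chaf1a, the large CAF-1 subunit, had 28.7, 27.1 and 29.1 CPM in sgPrkci, against 38.6, 43.9 and 38.0 CPM in sgPrkcz (log2 fold change of -0.49 ± 0.14 SE, adjusted p = 0.00889). Neither CAF-1 subunit overlapped between groups. Uhrf1, which recruits DNMT1 to hemimethylated DNA, had 34.3, 36.4 and 37.3 CPM in sgPrkci, against 43.4, 29.5 and 33.4 CPM in sgPrkcz. It was spread around the same level in both groups (log2 fold change of 0.04, 95% interval -0.28 to 0.36, adjusted p = 0.852), and a fall as large as that of Dnmt1 is outside the interval. Without replicate 14 of sgPrkcz its fold change was -0.078.

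E2f1, an activating member of the E2F family and itself a target of E2F, had 12.1, 13.1 and 9.94 CPM in sgPrkci, against 20.8, 21.3 and 14.6 CPM in sgPrkcz. The groups did not overlap, and E2f1 passed as lower (log2 fold change of -0.64 ± 0.21 SE, adjusted p = 0.0191). The call ended without replicate 12 of sgPrkci (adjusted p = 0.0845) and without replicate 13 or 14 of sgPrkcz (adjusted p = 0.0731 and 0.0745).

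The 6 genes that did not pass, and Prim2 and Chaf1a with their smaller falls, act together with genes that fell further, so partners were set in ratio within each library. These 8 pairs were chosen after the fold changes were seen, and the ratios are a description with no test. A ratio of CPM between genes is not a ratio of molecules, and only its change between groups is read here. In the primase, the ratio of Prim1 to Prim2 was 0.47, 0.66 and 0.61 in sgPrkci and 1.16, 1.31 and 0.93 in sgPrkcz. For licensing, the ratio of Cdt1 to Gmnn was 0.48, 0.78 and 0.64 in sgPrkci and 0.98, 1.23 and 1.24 in sgPrkcz. The sgPrkci ratios of both pairs lay below all sgPrkcz ratios. The ratio of Rpa2 to Rpa3 averaged 1.49 ± 0.11 in sgPrkci and 3.10 ± 1.01 in sgPrkcz, and that of Rrm1 to Rrm2 averaged 0.75 ± 0.13 in sgPrkci and 1.14 ± 0.21 in sgPrkcz (SD, n = 3). Dnmt1 over Uhrf1 averaged 2.197 ± 0.17 in sgPrkci and 3.96 ± 1.09 in sgPrkcz. The choice of a gene with a small fall against a partner that fell further largely fixes that such ratios are lower in sgPrkci, and nothing is read from how many of the 8 were. For Pola1 over Pola2 the groups overlapped, at 7.89 to 9.22 in sgPrkci and 9.0 to 13.2 in sgPrkcz.

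**Figure D5:**
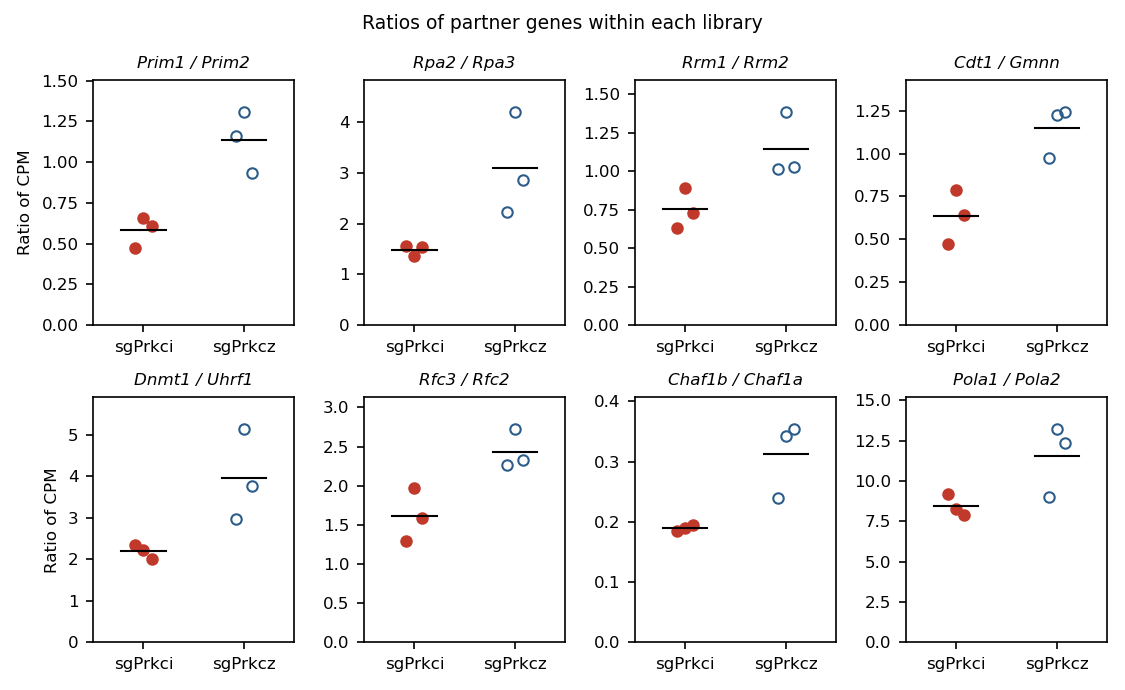
Ratio of the CPM of partner genes (vertical axis, from 0) in each sgPrkci library (filled, left) and sgPrkcz library (open, right), with the mean as a line. The pairs were chosen by their fold changes, and the ratio of Prim1 to Prim2 averages 0.58 in sgPrkci and 1.13 in sgPrkcz.

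The pathway holds further genes outside the 47. Of 74 such genes listed by role, 68 were tested, and 43 of these passed as lower and 2 as higher, beside 26.5% and 14.4% of all tested genes. Their median log2 fold change was -0.54, and 23 of the 68 did not pass. Recql4, Dna2, Polh, Atrip, Wee1 and Tfdp1 were below the filter. In 59 of the 74 every sgPrkci library reached 5 CPM. Mcm9, Donson, Chtf18, Dscc1, Dctd, Rad9a, Hus1 and Mybl2 passed the filter only with the sgPrkcz libraries, where they were higher. Their calls as lower depend on that. On TMM-rescaled values 34 passed as lower and 3 as higher, beside 19.8% and 20.7% of all tested genes. Among origin and helicase genes 9 of 13 were lower, among them Topbp1, a scaffold of helicase activation (log2 fold change of -0.79, adjusted p = 5.61e-07), and Dbf4, the regulatory subunit of the CDC7 kinase (-0.54, adjusted p = 1.63e-05). At the fork 11 of 15 were lower, led by Top2a, topoisomerase II alpha (-0.96, adjusted p = 1.9e-10), and Atad5, which unloads PCNA (-1.13, adjusted p = 9.2e-06). Pold4, the smallest subunit of polymerase delta, was higher, with 54.7, 51.4 and 55.05 CPM in sgPrkci, against 44.1, 38.9 and 29.8 CPM in sgPrkcz (log2 fold change of 0.52, adjusted p = 0.00584). It thus ran against Pold1, Pold2 and Pold3.

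For nucleotide supply 5 of 9 further genes were lower, with Nme1, a nucleoside diphosphate kinase, at -1.06 (adjusted p = 8.7e-08). Cmpk1, the UMP and CMP kinase, was higher (0.44, adjusted p = 0.00396). Chromatin replication had 8 of 11 lower, with Cbx5, a heterochromatin protein, at -0.78 (adjusted p = 2.4e-08) and Hells, a remodeler that acts in DNA methylation, at -0.89 (adjusted p = 1.51e-07). In the S phase checkpoint 4 of 7 were lower, with Chek1 at -0.98 (adjusted p = 0.000624) and Hus1 at -0.73 (adjusted p = 0.0247). On TMM-rescaled values 1 of these 7 was lower, a share near that of all tested genes. Hus1 kept its call in 8 of 17 alternatives and lost it on TMM-rescaled values (adjusted p = 0.0537), with chromosome medians removed (0.379) and without replicate 10 of sgPrkci or 13 or 15 of sgPrkcz (0.126, 0.0576 and 0.0784). Of the E2F and pocket protein genes 6 of 13 were lower, and 3 of 13 on TMM-rescaled values, near the share of all tested genes on that scale. They included Rbl1 (p107) at -0.66 (adjusted p = 0.00164) and Mybl2 at -1.15 (adjusted p = 0.00372). Mybl2 was at most 4.97 CPM in sgPrkci and entered the test only through sgPrkcz. Rb1 had 19.99, 20.1 and 21.7 CPM in sgPrkci, against 18.2, 15.1 and 11.7 CPM in sgPrkcz and did not pass (0.45, adjusted p = 0.0709). It passed as higher in 6 of 17 alternatives, among them TMM-rescaled values (adjusted p = 0.0244), chromosome medians removed (0.0247) and leaving out replicate 13 of sgPrkcz (0.0338). Mki67, a marker of cycling cells that takes no part in DNA synthesis, had 311, 343 and 353 CPM in sgPrkci, against 446, 530 and 463 CPM in sgPrkcz, and was lower, with a log2 fold change of -0.51.

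Whole chromosomes differed between the groups, which bears on genes by their position. The median log2 fold change of all tested genes was -0.41 on chromosome 11, -0.35 on chromosome 15 and -0.27 on chromosome 8, and 0.14 on chromosome 1 and 0.073 on chromosome 5. On chromosome Y 5 genes were tested, with a median of 2.90. Of the replication genes, 7 of 7 on chromosome 8 (among them Mcm5, Cdt1, Gins2 and Gins4) and 4 of 4 on chromosome 11 (among them Tk1 and Pold2) were lower, with medians of -0.98 and -0.95. How many of all tested genes on chromosomes 8 and 11 passed as lower was not analysed here. The 36 genes on other chromosomes than 8, 11 and 15 had a median of -0.65. Of these, 30 passed as lower, beside 26.5% of all tested genes on any chromosome. Against the median of its own chromosome, 45 of the 47 genes were below, where by definition all tested genes of a chromosome lie evenly on both sides. With chromosome medians removed from every library, 31 of the 47 passed as lower, where 18.5% of all tested genes did. The 10 calls that ended were Cdc6 and Rpa1 on chromosome 11 (adjusted p = 0.137 and 0.0549), Orc6, Gins3 and Rnaseh2a on chromosome 8 (0.618, 0.224 and 0.114), Mcm10, Pcna and E2f1 on chromosome 2 (0.0659, 0.136 and 0.0748), Pold1 on chromosome 7 (0.0872) and Pole2 on chromosome 12 (0.0748). What sets the chromosomes apart was not tested.

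Markers of differentiated intestinal cells differed between the groups, but not all in the same direction, and few of them were tested. The summed level of 6 enterocyte markers was 19.6 to 24.1 CPM in sgPrkci, against 1.26 to 1.76 CPM in sgPrkcz, with 2 of the 6 at 0 in all libraries or not listed, and nearly all of it came from Krt20. Of the enterocyte markers 1, Krt20, was tested and passed as higher. Krt20 reached the filter only through sgPrkci, with at most 1.76 CPM in sgPrkcz, which largely fixed that outcome. The 6 goblet markers summed to 36.4 to 53.6 CPM in sgPrkci, against 2.93 to 5.93 CPM in sgPrkcz. Of these 2, Spink4 and Agr2, were tested, and both passed as higher. They too reached the filter only through sgPrkci, with at most 1.48 and 2.97 CPM in sgPrkcz. Nothing is read from these calls. Paneth markers summed to 12.1 to 18.5 CPM in sgPrkci and 8.90 to 11.9 CPM in sgPrkcz, and the 1 that was tested did not pass. Enteroendocrine markers summed to at most 0.355 CPM. Epithelial identity markers summed to 3589 to 3981 CPM in sgPrkci and 4313 to 4581 CPM in sgPrkcz. All 6 of these were tested, and 2 passed as higher and 3 as lower. Tuft markers summed to 486 to 559 CPM in sgPrkci, against 704 to 904 CPM in sgPrkcz, with 3 of 5 at 0 or not listed. The whole sum thus came from the 2 tuft markers that were tested, and both passed as lower. Whether these 2 genes mark tuft cells in MTOs was not tested. Immune markers summed to 12.6 to 21.1 CPM in sgPrkci, against 7.61 to 11.1 CPM in sgPrkcz, with Ptprc at no more than 1.51 CPM. The 1 immune marker that was tested passed as higher. Fibroblast markers were at most 2.80 CPM, endothelial markers at most 0.742 CPM, and erythroid markers were at 0. Reads of ribosomal RNA (mt-Rnr1, mt-Rnr2 and the rRNA-like Gm42418) made up 21.2% to 24.0% of a library in sgPrkci and 17.6% to 19.4% in sgPrkcz (2-sided exact permutation p = 0.1, the smallest that 3 against 3 libraries allow). The part of these differences in the fall of the replication genes was not tested. Scaled without Gm42418 and the mitochondrial genes, the median of the 47 genes was -0.65, beside -0.045 for all tested genes.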

How the data were processed

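Total RNA (200 ng) of 6 MTO cultures was turned into QuantSeq 3′ libraries, a method that reads near the poly(A) end of a transcript, and was sequenced single-end on a NextSeq 500. The deposited values are CPM made by the authors, each library adding up to 1000000 over 20756 Ensembl genes. The labels name the build GRCm38. The forward kit was used, with molecular identifiers as an option, and the study's software list names a Lexogen QuantSeq pipeline on BlueBee. Whether reads were collapsed on the identifiers, the aligner and counter of this table, its annotation release and its strand setting are not stated in the sources used here. Symbols matched 20675 identifiers, and 0 value columns were left unmapped.

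Whole reads were recovered, since 100% of values in each library came out whole within 0.01 when divided by its lowest value above 0 (1593480 to 2815760 reads per library). Such values carry the counting error of those reads. Tests used limma 3.58.1 (R 4.3.3) with an intensity trend on log2(CPM + 1), sgPrkci over sgPrkcz, for 9558 genes that reached 5 CPM in 3 or more libraries. P-values were adjusted by Benjamini-Hochberg over these genes, with a threshold of 0.05. Fold changes on this scale understate the change of low genes. Single values were compared by a 2-sided exact permutation test, whose smallest p is 0.1. edgeR 4.0.16 on the recovered reads called 3941 genes, and DESeq2 1.42.0 was a further alternative. The script was tested on simulated data.

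The 47 genes, the 74 other pathway genes and the marker lists were chosen with earlier results of these data known. By role, every gene that did not pass and the 3 with the smallest adjusted p are given per library, and of the other pathway genes up to 2 lower and 2 higher per role, with Rb1 named after its values were seen. Values of 1 gene chosen by this rule are left out of the text, while the counts include it. Promoter windows came from RefSeq, GRCm38.p6, matched by symbol for 39 of the 47 genes. Near-identical copies and overlapping ends were looked up in the gene annotation.

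The alternatives were TMM-rescaled CPM, quantile normalization, scaling without Gm42418 and mitochondrial genes, no intensity trend, pseudocounts of 0.1 and 10, a filter of 10 CPM or none, each library left out in turn, a threshold of 0.01, edgeR and DESeq2. Removal of chromosome medians was added after seeing the data.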

Additional observations from a re-analysis of the deposited data

How the results depend on the processing

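Over 17 alternatives, 24 of the 41 calls held in every one in which the gene was tested, and 28 in every one other than DESeq2. Of 793 values of single replication genes, 703 kept direction and side of the threshold, 86 no longer passed, 1 newly passed and 3 changed sign. The sign changes came from leaving out a library: Rpa3 was at -0.056 without replicate 11 of sgPrkci and ranged between -0.067 and 0.18 over the libraries left out, and Uhrf1 between -0.078 and 0.19. Neither gene passed in any setting. DESeq2 on recovered reads passed 26 replication genes as lower in place of 41, and 1350 of all tested genes in place of 2534. The cause was not tested. The median log2 fold change of the replication genes, -0.70, was -0.60 with TMM-rescaled CPM, -0.59 with quantile normalization, -0.65 without Gm42418 and mitochondrial genes, -0.75 and -0.51 with pseudocounts of 0.1 and 10, -0.61 with chromosome medians removed, and -0.66 with edgeR and with DESeq2.

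Leaving out each library in turn gave 34 to 39 replication genes lower and 0 higher, 33 to 41 other pathway genes lower and 2 to 3 higher, 2110 to 2364 of all tested genes lower and 1059 to 1382 higher, and a median of the replication genes of -0.73 to -0.66. No paired analysis was possible because the groups share no replicate numbers. Low genes are counted on few reads, and a group of 3 libraries, with no control guide, limits every comparison to these cultures.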
